A study of Mus musculus with 1 sample.

Results

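The 41 synaptic and pan-neuronal genes described here encode the machinery of the neuronal synapse and the proteins by which neurons are usually recognised. They were chosen by gene symbol, from Syn1 to Slc32a1, and each matched 1 of the 23282 rows of the table. The values came from 1 RNA-seq library of mixed glia cultured from the ventral midbrain (VM) of ICR(CD-1) outbred mice at postnatal day 5. The library carried the control label in a study of serum- and glucocorticoid-regulated kinase 1 (SGK1) inhibition, and inhibitor-treated glia were not analysed here. The cells had been grown in serum-containing medium and passaged once confluent, so the library reports on cultured cells and not on midbrain tissue. The study describes its control glia as treated with the vehicle DMSO, and the treatment label also mentions toxins without saying whether control cells received them. As a single library was at hand, values are given without errors or tests, and the order of genes with similar levels has no replicate check.

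A chemical synapse passes a signal when vesicles loaded with transmitter fuse with the presynaptic membrane. Vesicular transporters fill the vesicle, SNARE proteins on the vesicle and on the plasma membrane pull the membranes together, synaptotagmin senses calcium, complexins clamp and release the SNARE complex, and large active zone proteins hold the vesicles at the release site. On the other side, scaffold proteins anchor the receptors, and neurexins and neuroligins bridge the cleft. Astrocytes, oligodendrocyte precursors and many secretory cells also use some of this machinery, whereas other parts are regarded as restricted to neurons.

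The values were normalised read counts as the authors provided them, and they summed to 27569507. Because a longer gene collects more reads, ratios between genes were taken from the value per kb of annotated exon, called the level per kb, and counts of genes past a minimum, sums and the choice of named genes in lists used the value. The median value over all rows was 119, and the median level was 31.0 per kb over the 22900 rows with an exon length, to which all statements on levels refer. For 3 glial or mesenchymal cell types, median marker levels were 3909 per kb for microglia, 743 for mesenchymal cells and 684 for astrocytes. All 28 genes of these marker lists had values of 10 or more, as did 67.2% of all rows. The medians were 693 per kb for ependymal cells, 269 for the oligodendrocyte lineage and 7.76 for endothelial cells. Less RNA of a gene per cell and fewer cells that express it cannot be told apart in a bulk library.

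The synaptic and pan-neuronal genes spanned a wide range, with 3 genes far above the rest. Cplx2, which encodes complexin 2, had the highest value, 17062, followed by Sv2c, a synaptic vesicle glycoprotein, at 7433 and Stmn2, a microtubule-destabilising stathmin of growing axons, at 3802. These 3 genes held 75.4% of the summed value of all 41, and the other 38 together held 24.6%. A value of 10 or more was reached by 35 of the 41 genes, and 67.2% of all rows did so. At a minimum of 1 or of 3 the number was 39, against 78.2% and 73.9% of all rows. A value of 100 or more was reached by 25 genes, against 51.6% of all rows, and a value of 1000 or more by 6 genes, against 21.5%. Sv2b and Slc17a6 were listed at 0, as were 21.8% of all rows. The median level of the 41 genes was 15.8 per kb, and 16 of them lay above the median of all rows.

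**Figure D1:**
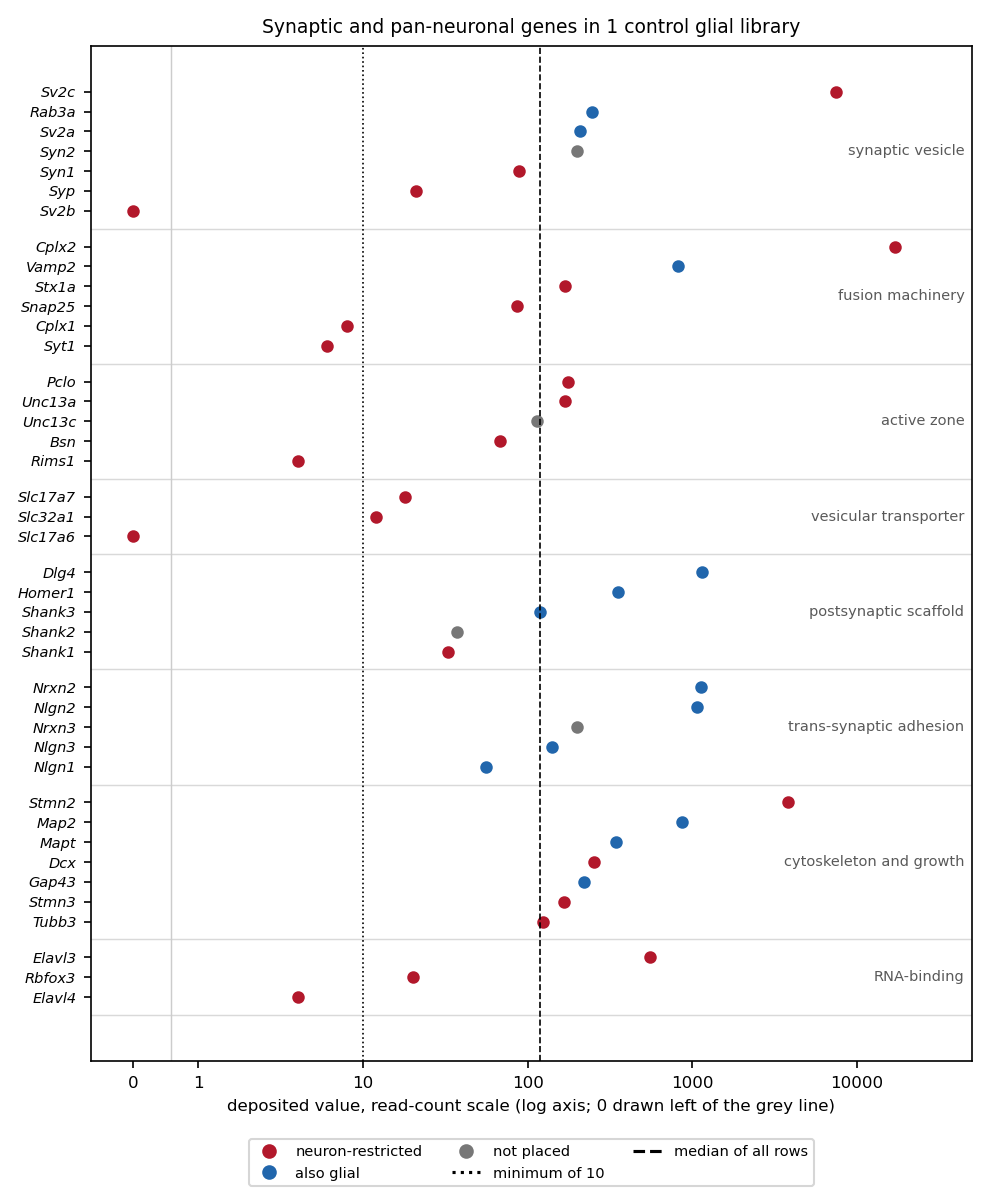
Deposited value of each of the 41 genes on a logarithmic axis, grouped by role, with 1 point per gene and colours for the class assigned from general knowledge; the dotted line marks a value of 10 and the dashed line the median of all rows, 119. Cplx2 at 17062, Sv2c at 7433 and Stmn2 at 3802 stand to the right of all other genes, while Sv2b and Slc17a6 are drawn at 0.

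The upstream sequence is shown for the top genes Cplx2 and Sv2c because they lead the set, whereas no upstream entry was at hand for Stmn2. Each run gives the 250 bases before the RefSeq transcription start on the gene's own strand in GRCm38, 5′ to 3′, with CG dinucleotides in capitals. For Cplx2 the region is chr13:54302306-54302555 on the plus strand, and for Sv2c it is chr13:96132578-96132827 on the minus strand.
Cplx2: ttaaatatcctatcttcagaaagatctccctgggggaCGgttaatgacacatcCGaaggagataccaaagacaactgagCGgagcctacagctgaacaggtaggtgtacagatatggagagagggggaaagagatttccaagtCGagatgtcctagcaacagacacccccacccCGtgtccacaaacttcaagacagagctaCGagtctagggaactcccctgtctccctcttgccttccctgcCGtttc
Sv2c: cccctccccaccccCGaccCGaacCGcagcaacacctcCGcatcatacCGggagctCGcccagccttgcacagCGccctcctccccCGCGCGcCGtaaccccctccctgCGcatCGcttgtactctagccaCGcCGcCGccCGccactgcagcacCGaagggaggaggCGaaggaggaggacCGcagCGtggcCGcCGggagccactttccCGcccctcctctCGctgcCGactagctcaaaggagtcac
The Cplx2 stretch held 7 CG dinucleotides and a GC content of 50.8%, and the Sv2c stretch held 26 and 70.8%. The genes with the highest levels therefore differed in this feature. Over windows of 300 bases that reach from 250 bases before to 50 after the start, Cplx2 had 9 CG dinucleotides and Sv2c had 32, against a median of 7 over all 32851 promoters and 18.5 over the 32 genes of the set with an entry (first listed promoter of each). The annotated start of Cplx2 differs between sources: the RefSeq start used here lies 68793 bases upstream of the GENCODE start that the exon length rests on.

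Genes of the vesicle and its fusion are described first. Sv2c (chromosome 13, 95954594 to 96132577) had a level of 766 per kb, above 92.0% of rows. Its relatives differed widely: Sv2a, the form found in nearly all neurons and also in endocrine cells, had a value of 209 and a level of 45.1 per kb, so that Sv2c was 17 times as high, and Sv2b was listed at 0. The vesicle marker synaptophysin (Syp) had a value of 21 and a level of 4.03 per kb. Among the synapsins, which tether vesicles to the cytoskeleton, Syn2 had a level of 28.4 per kb (value 200), Syn1 26.7 (value 88) and Syn3, which is outside the set, 5.70 (value 70). The ratio of Syn2 to Syn1 was 1.07 per kb of exon, but 1.92 per kb of the longest transcript. Rab3a, a small GTPase of secretory vesicles, had a value of 246 and a level of 111 per kb. Thus Sv2c and Syp, which reside on the same vesicles in neurons, were far apart in this library.

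In the fusion machinery, Cplx2 (chromosome 13, 54371349 to 54383917) had a level of 3462 per kb, above 98.1% of rows and 4.52 times that of Sv2c, the next gene of the set. Cplx1 had a value of 8 and a level of 3.65 per kb, and the Cplx2 level was 947 times as high. Cplx3, a complexin outside the set, had a value of 42 and a level of 14.2 per kb. The proteins on which complexins act were much lower than Cplx2. Stx1a, the plasma membrane syntaxin of neurons, had a value of 169 and a level of 63.4 per kb. Snap25, its SNARE partner, had a value of 86 and a level of 12.7 per kb. The calcium sensor Syt1 had a value of 6 and a level of 0.720 per kb. Vamp2, the vesicle SNARE that non-neuronal cells also use, was the second in this group with a value of 824 and a level of 216 per kb.

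The active zone genes were uniformly low. Their levels ran from 0.543 per kb for Rims1, a scaffold that recruits calcium channels (value 4), to 13.4 for Unc13a, the vesicle-priming factor (value 169), and none of the 5 was above the median of all rows. The very large scaffolds Pclo (piccolo) and Bsn (bassoon) had values of 175 and 68, but levels of only 7.79 and 4.27 per kb because of their long exons. Unc13c had a value of 114 and a level of 13 per kb. The vesicular transporters, which define the transmitter that a neuron releases, had the lowest median level of the groups, 3.34 per kb, next to 3.44 for the RNA-binding genes. Slc17a7 and Slc17a6 load glutamate and had values of 18 and 0, and Slc32a1, which loads GABA and glycine, had a value of 12. The exons of Slc32a1 overlap an opposite-strand gene over 24.9% of their length, so part of that value could come from the other gene.

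On the postsynaptic side, Dlg4, which encodes the scaffold PSD-95, had a value of 1138 and a level of 85.9 per kb. Homer1, which links metabotropic glutamate receptors to intracellular stores, had a value of 356 and a level of 29.7 per kb. The Shank scaffolds were lower, with levels of 13 per kb for Shank3 (value 119), 3.44 for Shank2 (37) and 3.14 for Shank1 (33). Among the adhesion genes, Nlgn2, the neuroligin of inhibitory synapses, had a value of 1073 and a level of 185 per kb. That was 12.2 times the level of Nlgn3 (value 141) and 44.5 times that of Nlgn1 (56). The order has a limit, since 41.2% of the Nlgn3 exon length is shared with a gene on the same strand. Nrxn2 had a value of 1133 and a level of 82.0 per kb, 5.2 times the level of Nrxn3 (value 199).

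All 7 cytoskeletal and growth genes had values of 100 or more, as did 51.6% of all rows. Stmn2 (chromosome 3, 8509360 to 8561606) had a level of 679 per kb, above 90.9% of rows and 4.62 times that of Stmn3, which had a value of 167 and a level of 147. Gap43, a membrane protein of growth cones that glia can also make, had a value of 221 and a level of 145 per kb. The neuronal tubulin Tubb3 had a value of 124 and a level of 66.4. The microtubule-associated proteins Map2 and Mapt (tau) had values of 868 and 342 and levels of 52.8 and 45.4 per kb. Dcx, a marker of migrating young neurons, had a value of 253 and a level of 20.0 per kb. Among the RNA-binding proteins of neurons, Elavl3 had a value of 554 and a level of 80.4 per kb, 108 times that of Elavl4 (value 4). Rbfox3, which encodes the nuclear marker NeuN, had a value of 20 and a level of 3.44 per kb. Markers of neurons thus lay on both sides of the median of all rows. Of the 24 genes classed further down as neuron-restricted, 7 lay above it: Cplx2, Sv2c, Stmn2, Stmn3, Elavl3, Tubb3 and Stx1a. The others, among them Rbfox3, Syp, Syt1, Snap25 and Dcx, lay below it. Map2, which is classed as also glial, lay above it.

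Near-identical sequence in other genes was searched for each of the 41 genes. The longest transcripts of Cplx2, Sv2c and Stmn2 shared no stretch of 100 bases or more at 95% identity with an annotated transcript of another gene, and their exons overlapped no other annotated gene. Such stretches were found in 11 of the 41 genes, and exon overlaps in 17, of which 14 were on the opposite strand. The shares over all genes were not determined. Dlg4, the next gene by value, shared stretches with 79 other genes, the longest of 200 bases. Nrxn2, which followed, shared 1 of 164 bases and overlapped an opposite-strand gene over 682 bases. The effect on the values was not tested.

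To compare neuron-restricted genes with those also used by glia, 24 genes were classed as restricted and 13 as also glial from general knowledge of where they are expressed, and 4 genes (Syn2, Unc13c, Shank2 and Nrxn3) were placed in neither class. The also-glial genes had a median level of 52.8 per kb, and the neuron-restricted genes a median of 6.04. All 13 also-glial genes had values of 10 or more, and 18 of the 24 restricted genes did, beside 67.2% of all rows. Of the also-glial genes, 12 lay above the median of the restricted class, the exception being Nlgn1 at 4.17 per kb. The classes overlapped. A total of 10 restricted genes lay below every also-glial gene, among them Syt1, Elavl4, Rims1, Shank1 and Slc17a7, whereas Cplx2, Sv2c and Stmn2 lay above every also-glial gene. Stmn3, Elavl3, Tubb3 and Stx1a also exceeded the also-glial median. The also-glial class thus occupied a narrower span, from 4.17 to 216 per kb, and the restricted class ran from 0 to 3462. By summed value the order was the other way, 30276 for the restricted and 6726 for the also-glial genes, because of Cplx2, Sv2c and Stmn2. Whether these 3 genes are restricted to neurons was not tested here. The ratio of the medians was 8.73, and it ranged from 3.16 to 17.2 when the length, the summary or the membership was changed.

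**Figure D2:**
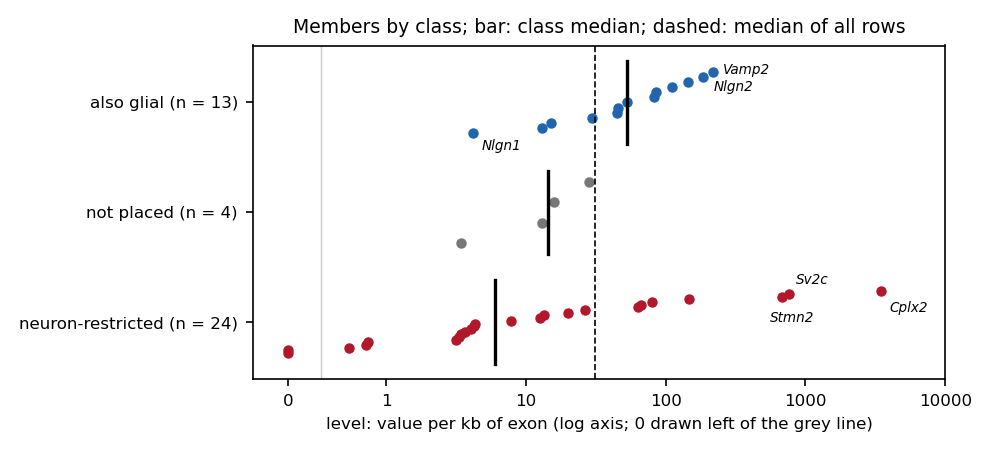
Level per kb of exon of each gene on a logarithmic axis, split into the neuron-restricted (24), unplaced (4) and also-glial (13) classes, with a bar at each class median and a dashed line at the median of all rows, 31.0. The restricted class has the lower median, 6.04 against 52.8, but also the genes farthest to the right, Cplx2, Sv2c and Stmn2.

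Many synaptic proteins have a paralog that is regarded as more widely expressed and serves the same kind of step, or a related one. From general knowledge, 20 such pairs were formed and compared per kb. How widely each paralog is expressed was not tested here. The widely expressed paralog had the higher level in 19 of the 20 pairs. It was higher in all 14 pairs with a restricted gene and in 5 of the 6 pairs with an also-glial gene. The 20 pairs draw on 16 paralogs, as Stmn1, Map4, Elavl1 and Slc17a5 recur, so they are not all separate comparisons. The median ratio of paralog to member was 20.8 over the 13 restricted pairs with a member above 0, and 5.13 over the 6 also-glial pairs. Without the 3 pairs whose paralog is known for another step (Syt11 and Slc17a5), a choice made after the values were seen, the paralog was higher in 16 of 17 pairs and the restricted median was 17.9. The SNARE genes show this plainly. Snap23 (value 3103, level 723 per kb) exceeded Snap25 57.1-fold, and Stx4a (value 3122, level 1321) exceeded Stx1a 20.8-fold. Vamp3 (value 1301, level 450) exceeded Vamp2 only 2.08-fold. A SNARE set of the kind used for general exocytosis was therefore present at higher levels than the neuronal set, and the vesicle SNARE differed least.

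Other pairs had the same direction with different sizes. Syt11, a synaptotagmin that does not bind calcium, had a level of 472 per kb, 656 times that of Syt1. Elavl1 (HuR, 151 per kb) exceeded Elavl4 204-fold but Elavl3 only 1.88-fold. The sialic acid transporter Slc17a5 (289 per kb) exceeded Slc17a7 86.6-fold. Tubb5, a tubulin of dividing and non-neuronal cells, had a level of 2994 per kb and exceeded Tubb3 45.1-fold. Sypl exceeded Syp 40.4-fold, and Homer3 exceeded Homer1 19.7-fold, or 5.67-fold without division by length. Of the 3.44 kb of Homer3 exon, 874 bases overlap an opposite-strand gene, and 16.8% of the Syp exon length does so. Part of either value could come from the other gene. Rbfox2 exceeded Rbfox3 17.9-fold. Map4 exceeded Mapt 9.51-fold and Map2 8.19-fold.

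Stmn2 was close to its paralog compared with most other restricted genes. Stmn1, a stathmin of dividing cells, had a level of 2300 per kb, 3.39 times that of Stmn2 and 15.6 times that of Stmn3. Dclk1 exceeded Dcx 2.82-fold, Unc13d exceeded Unc13a 1.85-fold and Dlg1 exceeded Dlg4 1.78-fold. The direction was the opposite for 1 pair, with Rab3d at 0.679 of the level of Rab3a, an also-glial gene. Without division by length, Rab3a fell below Rab3d (246 against 315) and Unc13a rose above Unc13d (169 against 116), so these orders depend on the exon lengths. Complexins and SV2 proteins were not paired, since no widely expressed counterpart was named for them.

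**Figure D3:**
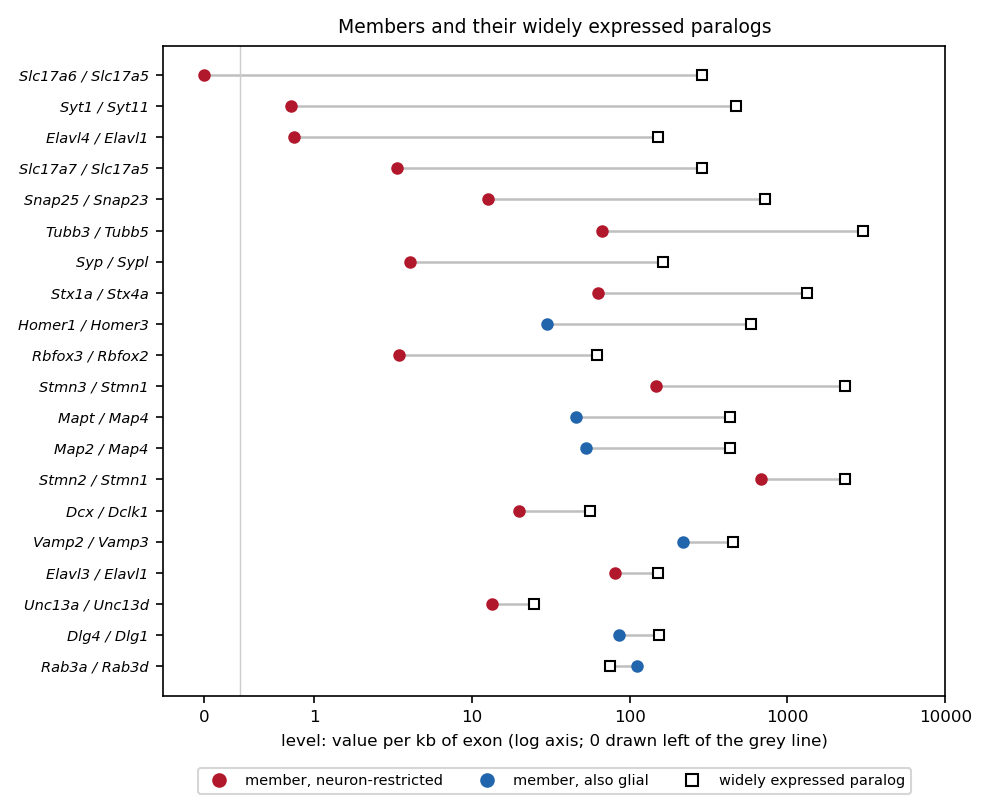
Level per kb of exon on a logarithmic axis for 20 pairs, with the member as a filled circle and its widely expressed paralog as an open square. The square lies to the right in 19 pairs; Rab3a lies to the right of its paralog, and Slc17a6 is drawn at 0.

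Related genes outside the 41 differed in level from list to list. Of 25 other presynaptic genes, all had values of 10 or more (67.2% of all rows) and 14 had values of 100 or more (51.6% of all rows), with a median level of 27.3 per kb. Rab3c, a vesicle GTPase related to Rab3a, had a value of 11961 and a level of 993 per kb, above 93.8% of rows. Dnajc5, a chaperone of vesicle proteins, and Syngr1, a vesicle membrane protein, followed by value with 2025 and 2019 and had levels of 291 and 420 per kb, and Rims3 was lowest at 22. The level of Rab3c was thus between those of Cplx2 and Sv2c, while its paralog Rab3a and its active zone partner Rims1 had levels of 111 and 0.543 per kb. Among 19 other postsynaptic and adhesion genes, 18 had values of 10 or more (67.2% of all rows). Their median level was 14.2 per kb, and 6 of the 19 lay above the median of all rows. The actin-binding Ppp1r9b had a value of 6069, the scaffold-linked Dlgap4 3216 and the activity-regulated Arc 949, and Cbln1 was lowest at 2.

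The list of neurofilament and pan-neuronal genes had a median level of 74.1 per kb. Values of 10 or more were reached by 15 of 18, and by 67.2% of all rows. Its highest members by value were Ncam1 at 6815, an adhesion molecule that glia share, Map1b at 2164 and Uchl1 at 1415. Their levels were 787, 137 and 867 per kb, so that Uchl1 came first on that scale, and Nrsn1 was listed at 0. Genes for transmitter synthesis and transport were the lowest of the lists compared, with a median level of 1.49 per kb. Of these 14 genes, 5 had values of 10 or more (67.2% of all rows), and 5 were listed at 0 (21.8% of all rows). Chat, the acetylcholine-synthesising enzyme, had a value of 290, the GABA-synthesising Gad2 173 and the glutamate transporter Slc17a8 113. Dopamine neurons are the best-known neurons of this region, and their defining genes Th and Slc6a3 had values of 3 and 7. Genes of neuroblasts had a median level of 20.2 per kb, and 12 of 15 had values of 10 or more (67.2% of all rows). Cd24a had a value of 5833, Sox4 1333 and Nhlh2 995, of which Cd24a and Sox4 are not particular to neuroblasts, and Neurog2 and Nhlh1 were listed at 0.

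**Figure D4:**
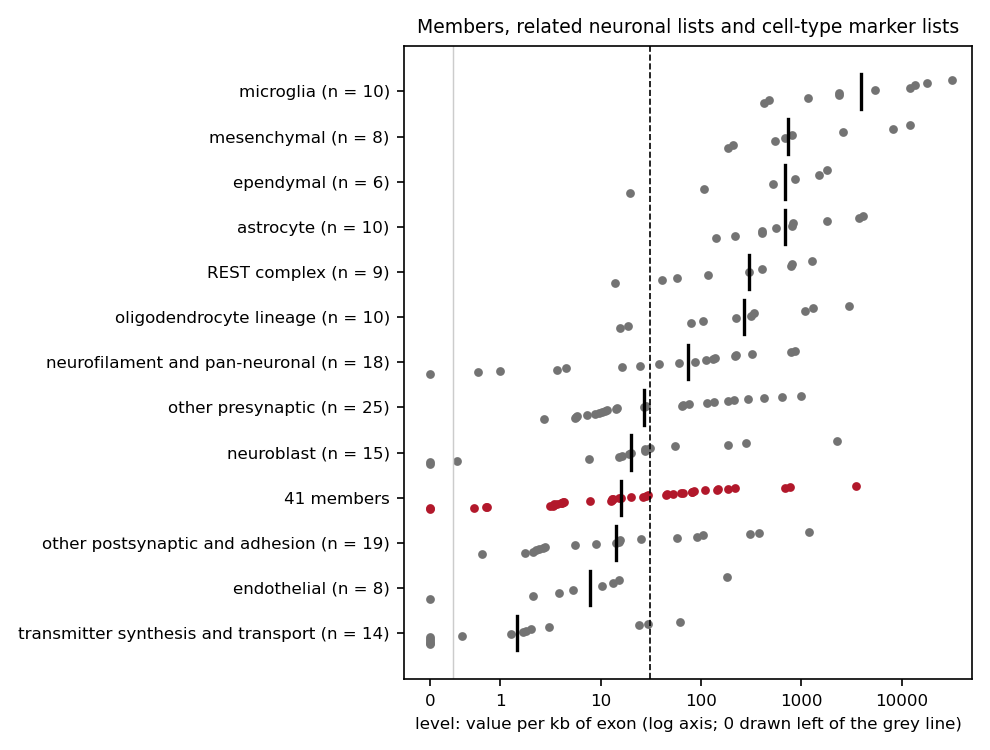
Level per kb of exon on a logarithmic axis for the 41 genes (red), related neuronal lists and cell-type marker lists (grey), with 1 point per gene, a bar at each median and a dashed line at the median of all rows. The 41 genes have a median of 15.8 per kb, between transmitter genes at 1.49 and microglia markers at 3909.

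REST is a repressor that binds the RE1 element and keeps neuronal genes silent in non-neuronal cells, with the help of corepressors and histone-modifying enzymes. Rest had a value of 847 and a level of 117 per kb, above 68.2% of rows. Of its partners, the deacetylases Hdac1 and Hdac2 had values of 4348 and 3582, the methyltransferase Ehmt2 4283, the demethylase Kdm1a 2093 and the scaffold Sin3a 1623. The CoREST genes were lower, with Rcor3 at 558, Rcor1 at 327 and Rcor2 at 44. All 9 genes had values of 10 or more, as did 67.2% of all rows, and the median level of the 9 was 301 per kb. A total of 8 lay above the median of all rows, the exception being Rcor2 at 13.9 per kb.

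The RE1 element holds letters such as CAGCACC in its left part and letters such as GGACAG in its right part. Both strings were searched on either strand of the RefSeq promoter windows in GRCm38. CAGCACC occurred in 6 of the 32 genes of the set with an entry (18.8%), against 8.14% of all 27025 genes. GGACAG occurred in 10 of the 32 (31.3%), against 24.7% of all genes. These shares are not like for like, since the 32 genes had 49 windows and all 27025 genes had 32851. The median GC content was also higher in the set, 62.7% (first listed promoter of each gene) against 52.7% over all promoters. The effect of either difference on the shares was not tested. The joined string CAGCACCNNGGACAG was in 0 of the 32 genes and in 11 of all genes. With the third base of the second string left undefined, a choice made after the sequences were seen, the string was in 18 of all genes, and Syn1 was among them. Syn1 and Sv2c both hold CAGCACC, but only Syn1 holds the joined string with the open base. Their levels were 26.7 and 766 per kb, and a link between the letters and the levels was not tested. Each match of CAGCACC that lay wholly before the start is given with 17 bases on either side. The match is in capitals, on the strand that carries it.
Syn1, chrX:20921125-20921165, minus strand: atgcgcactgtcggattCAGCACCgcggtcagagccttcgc
Syn1, chrX:20921071-20921111, minus strand: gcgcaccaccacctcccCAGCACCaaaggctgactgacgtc
Sv2c, chr13:96132655-96132695, minus strand: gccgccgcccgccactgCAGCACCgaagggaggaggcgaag
Tubb3, chr8:123411415-123411455, minus strand: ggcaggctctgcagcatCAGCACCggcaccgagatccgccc
Nlgn1, chr3:26154114-26154154, minus strand: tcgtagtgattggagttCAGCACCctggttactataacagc
The first matched base along the gene lay 230 and 176 bases before the RefSeq start in Syn1, 101 in Sv2c, 121 in Tubb3 and 151 in Nlgn1. For Nlgn1 this is the second of the listed starts, and the Tubb3 match lies after the start that GENCODE gives, 123411424. Dlg4 and Unc13a held the letters at or after the start. A match is a description of the letters and does not show that the repressor was bound, and genes without a match in this window may hold the element elsewhere.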

How the data were processed

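RNA from 1 control library of VM-derived mixed glia was analysed. Per the study's methods, low-quality bases were trimmed, reads were mapped to GRCm38/mm10 with STAR, and reads on exons of a RefSeq annotation were counted with HTSeq-count, while the submitters' processing notes name TopHat and edgeR, so the aligner is not settled. The deposited values are whole numbers that the authors call normalised read counts, and each was handled as a score whose scale is that of read counts. The methods also describe FPKM values, but a column that sums to 27569507 is not in that unit. The normalisation behind the read counts, strand setting and number of reads were not given in the sources used here, so no interval or detection floor is given, and a gene-specific normalisation would change levels and ranks.

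Values were divided by the union of exons in GENCODE M21 (GRCm38), to which 22900 of 23282 rows (98.4%) were matched by symbol or by older RefSeq symbol. A value of 10 or more was the detection minimum. Gene classes, paralog pairs and lists came from general knowledge, and the members and lists were chosen with earlier results of these data known. Named genes were the 41 members, their paralogs, the 3 highest and the lowest gene of each neuronal list, and all REST genes. A pair and a list entry were left out of every count and are not reported here, so the counts cover the reported pairs alone. Th, Slc6a3, Cplx3 and Syn3 were chosen after their values were seen, and cell-type marker lists are given by their medians only. Functions for exon length, overlap and string search were tested on simulated data. Shared sequence was searched with BLAST 2.17.0, and tables and plots were made in Python 3.11.15 with pandas 2.3.3, numpy 2.4.6 and matplotlib 3.10.9. Promoter sequences and starts came from RefSeq (GRCm38.p6), in which 32 of the 41 genes had an entry.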

Additional observations from a re-analysis of the deposited data

How the results depend on the processing

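The ratio of the also-glial to the neuron-restricted median, 8.73 per kb of exon, was 17.2 with the longest transcript as length, 4.44 without division by length, 3.41 from the mean of log2(level + 1), 5.16 with the 4 unplaced genes counted as restricted, and 3.16 without genes under a value of 10, which removes restricted genes alone. It was 7.46 with the unplaced genes counted as also glial and 6.78 without genes that overlap another gene. The also-glial class was higher in all 7 alternatives, of which 1 compares means of log2(level + 1) and 6 compare medians. By summed value the order was the other way, 30276 for the 24 restricted and 6726 for the 13 also-glial genes. The causes of the shifts with length and with the mean were not tested. The number of genes reaching the detection minimum was 39 at a minimum of 1 or 3 and 25 at 100. The count of 19 pairs with the higher paralog did not change with the longest transcript or without division by length, and was 16 of 17 without the pairs of another step. Without division by length, the ratio of Rab3d to Rab3a turned to 1.28 and that of Unc13d to Unc13a to 0.686. Of 38 pair ratios recomputed, 20 stayed within 1.5 times, 16 moved by more without a change of direction, and 2 reversed. The 41 genes summed to 1362 per 1000000 of all values, and to 1573 without the 10 highest rows in the total. With the third base of the second RE1 string open, 1 gene of the set in place of 0 held the joined string. No paired analysis was possible because there was 1 library. The lack of a replicate and the unknown number of reads limit every value, above all those under 10.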
